A study of Homo sapiens with 6 samples.

Results

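The suppressors of cytokine signaling (SOCS) are a family of 8 human genes, CISH and SOCS1 to SOCS7, whose products shut down signaling from cytokine and growth factor receptors. They were taken by gene symbol, with no use of their measured values, and all 8 were found among the 28181 genes with RNA sequencing values. UE7T-9 is an immortalized line of human bone marrow mesenchymal stem cells, the stromal cells that support blood formation. The 3 UE7T-9 SHC4 libraries (genotype label SHC4-OE) came from cells infected with lentivirus carrying SHC4, an adaptor protein that binds activated receptor tyrosine kinases. The 3 UE7T-9 Cont libraries are labelled as nontarget with a WT genotype, and the study describes these cells as infected with a vector for green fluorescent protein. Both groups were grown in Dulbecco's modified Eagle's medium containing fetal bovine serum, and no cytokine added beyond the serum is named. The study selected the infected cells with puromycin. The transgene was driven from a CMV lentiviral vector and the series speaks of clones, and the sample titles number the libraries as bio reps. Whether the 3 libraries of a group came from separate infections, clones or cultures is not stated beyond that. The p-values below set the difference of the groups against the spread between these libraries. What level of replication that spread reflects is not known.

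Values are normalized counts, that is, reads per gene divided by a size factor of the library. The libraries held between 18144993 and 27721397 reads in genes, and 3 reads corresponded to at most 3.53 normalized counts. SHC4 stood at 56.5, 157 and 130 in UE7T-9 Cont, against 134870, 119166 and 155006 in UE7T-9 SHC4, as the labels say. All 8 mesenchymal stem cell markers examined had at least 1487 normalized counts in every library, whereas the 8 blood and endothelial markers in the files summed to between 241 and 426. Of these, PTPRC, the pan-leukocyte marker, reached at most 6.82 and CDH5, the endothelial cadherin, at most 1.18, while CD34 stood at 39.6 to 52.7, the monocyte marker CD14 at 52.7 to 88.3 and HLA-DRA at 72.8 to 262. UE7T-9 Cont replicate 1 stood apart from the other controls, with a correlation of log values across genes of 0.975 with UE7T-9 SHC4 replicate 1 against 0.967 and 0.962 with UE7T-9 Cont replicates 2 and 3. Its summed level of the mesenchymal markers was 396980, against 164069 and 136637 in the other controls and 208702 to 363914 in UE7T-9 SHC4. COL1A1, the type I collagen chain, carried most of that gap, with 315042 against 87857 and 67813 in the other controls. In UE7T-9 SHC4 replicate 1 it was high as well, at 276719 against 130035 and 122241 in the other UE7T-9 SHC4 libraries. The other 7 markers summed to 81938 in UE7T-9 Cont replicate 1, against 76212 and 68824 in the other controls. Of those 7, NT5E was lower in this library (13089 against 22364 and 20649) and the other 6 were higher. Where this library decides an overlap or a call of a gene whose values are given below, the value or the call without it is given.

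Cytokines such as interleukin-6, leukemia inhibitory factor (LIF), interferons and growth hormone bind receptors that lack a kinase of their own and activate bound Janus kinases (JAKs), which phosphorylate STAT transcription factors. STATs then switch on CISH, SOCS1, SOCS2 and SOCS3, whose proteins return to the receptor and close a negative feedback loop, so that the transcripts of these genes are often used as a readout of recent cytokine signaling. Every family member has an SH2 domain, which binds phosphotyrosine, and a SOCS box, which recruits elongins and cullin 5 to form a ubiquitin ligase. SOCS1 and SOCS3 also block the JAK catalytic site, while SOCS4 to SOCS7 act largely on receptor tyrosine kinases and their adaptors and are less tied to STAT induction.

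All 8 genes were detected in every library, and their levels spanned a wide range. Per kilobase of exon (normalized counts divided by the length of the merged exons), SOCS3 was the highest, with a mean of 507 over the 6 libraries and a range of 454 to 608. It was followed by SOCS5 at 307 (195 to 420), SOCS4 at 179 (141 to 222), SOCS6 at 108 (81.2 to 127), SOCS2 at 70.8 (36.1 to 102) and SOCS7 at 53.6 (47.3 to 56.5) per kilobase. SOCS1 at 25.4 (13.8 to 35.2) and CISH at 7.88 (3.08 to 12.2) per kilobase were the lowest. The ranges of neighbours in this order did not overlap between SOCS3 and SOCS5, SOCS4 and SOCS6, SOCS7 and SOCS1, or SOCS1 and CISH. For SOCS1 and CISH this rests on the lengths used, 1796 and 5112 bases. Before division their ranges overlapped, at 24.7 to 63.3 and 15.7 to 62.4 normalized counts. Merged exons join all annotated transcripts of a gene, and which of them these cells express was not tested. SOCS5 with SOCS4, SOCS6 with SOCS2 and SOCS2 with SOCS7 had overlapping ranges, so their order was not separated by the spread over libraries. The feedback genes induced by STATs were spread over this order, with SOCS3 at the top, SOCS2 between SOCS6 and SOCS7, and SOCS1 and CISH at the bottom.

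**Figure D1:**
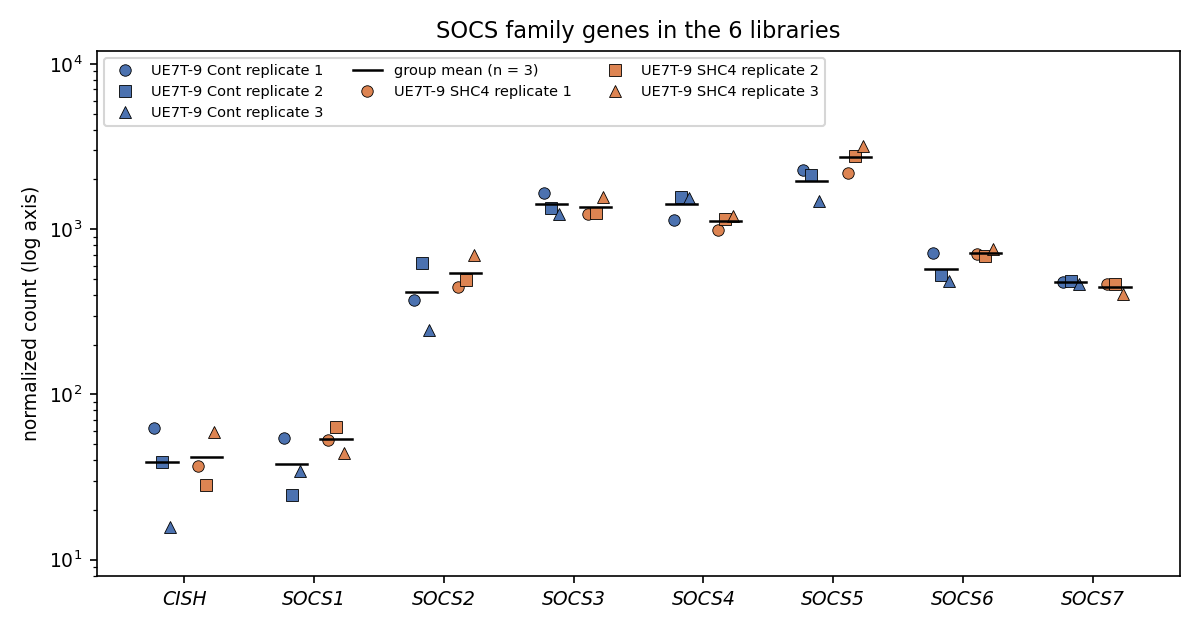
Normalized count (log axis, not divided by length) of each SOCS family gene in each of the 3 UE7T-9 Cont and 3 UE7T-9 SHC4 libraries, with a bar at the mean of each group (n = 3). For all 8 genes at least 1 UE7T-9 Cont library lies within the range of the UE7T-9 SHC4 libraries, from CISH with 15.7 to 62.4 normalized counts to SOCS5 with 1479 to 3192.

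CISH, the first feedback inhibitor of the family to be described, is a standard target of STAT5. Its start site region is shown because it alone among the members' windows examined held a STAT-type motif, and STAT5A is among the pathway genes measured here. The letters below are from RefSeq (GRCh38.p14), chr3:50611832-50612024 on the minus strand, ending at the GENCODE 29 start and so upstream of the RefSeq start too, with matches to TTCNNNGAA in capitals. This motif is a palindrome and reads the same on both strands.
CISH: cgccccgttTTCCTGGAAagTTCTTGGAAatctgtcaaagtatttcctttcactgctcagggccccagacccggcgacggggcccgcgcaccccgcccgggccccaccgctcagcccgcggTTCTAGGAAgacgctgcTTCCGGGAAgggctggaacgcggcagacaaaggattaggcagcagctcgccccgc
The 4 matches begin 241, 230, 129 and 112 bases before the RefSeq start, in 2 close pairs. Windows from 250 bases before to 50 after the start were available for 5 of the 8 members, CISH, SOCS1, SOCS3, SOCS4 and SOCS6. The windows of the other 4 genes held no match to TTCNNNGAA. For SOCS3 the windows were chr17:78360876-78361175 and chr17:78359618-78359917. Neither covers its GENCODE 29 start at 78360077 or the bases just before it, so that stretch was not searched. Among 35116 such windows, 7.66% held at least 1 TTCNNNGAA and 0.0199% held at least 4. A match describes letters only, and its absence says that these letters are not in that window.

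The CISH transcript (chromosome 3, 50606490 to 50611831, minus strand, GRCh38) was at 62.4, 38.8 and 15.7 normalized counts in UE7T-9 Cont replicates 1 to 3, against 36.9, 28.3 and 59.4 in UE7T-9 SHC4. The highest and the lowest library were both controls, so the groups overlapped fully. The means were 39.0 ± 23.3 and 41.5 ± 16.1 (SD, n = 3 each), and the log2 fold change (UE7T-9 SHC4 over UE7T-9 Cont, here and throughout) on log2(normalized count + 1) was 0.22 (SE 0.50, adjusted p = 0.877, limma with Benjamini-Hochberg adjustment over 23040 genes). Its 95% interval ran from 0.531-fold to 2.56-fold, so a change in either direction was bounded only loosely. The sign turned when 1 library was left out, to -0.31 without UE7T-9 Cont replicate 3 and to -0.06 without UE7T-9 SHC4 replicate 3. These values rest on 16 to 64 reads per library, and 4.26% of the CISH exon bases are shared with MAPKAPK3 on the opposite strand. MAPKAPK3 had a mean of 1719 normalized counts, against 40.3 for CISH. The strand setting is not stated, and how far reads in the shared bases affect the CISH counts was not tested.

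SOCS2, the other STAT5-responsive member and the inhibitor of growth hormone signaling, lies on chromosome 12 (93569814 to 93583487, plus strand). It had 370.4, 627 and 245 normalized counts in UE7T-9 Cont, against 447, 494 and 694 in UE7T-9 SHC4. UE7T-9 Cont replicate 2 lay among the UE7T-9 SHC4 libraries and the other controls lay below all of them. The log2 fold change was 0.47 (SE 0.31, adjusted p = 0.52, limma), and leaving out 1 library at a time gave 0.15 to 0.83 with adjusted p from 0.443 to 0.875. The antisense gene SOCS2-AS1, which shares 4.09% of the SOCS2 exon bases, had 32.2, 44.7 and 18.7 normalized counts in UE7T-9 Cont, against 42.2, 70.8 and 55.9 in UE7T-9 SHC4. Its log2 fold change was 0.85 (SE 0.38, adjusted p = 0.347, limma), and without a stated strand setting reads in the shared bases cannot be told apart.

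SOCS1 (chromosome 16, 11254405 to 11256200, minus strand), which restrains interferon signaling, had 54.6, 24.7 and 34.4 normalized counts in UE7T-9 Cont, against 52.7, 63.3 and 44.3 in UE7T-9 SHC4. UE7T-9 Cont replicate 1 was the control within the UE7T-9 SHC4 range. Its log2 fold change of 0.54 was the largest of the family, with an SE of 0.35 and an adjusted p of 0.51 (limma), on 21 to 76 reads per library.

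SOCS3 (chromosome 17, 78356778 to 78360077, minus strand) terminates signaling through gp130, the receptor chain shared by interleukin-6 and LIF. It had 1662, 1346 and 1240.5 normalized counts in UE7T-9 Cont, against 1242, 1253 and 1572 in UE7T-9 SHC4. As with CISH, the controls held both the highest and the lowest value. The log2 fold change was -0.06 (SE 0.15, adjusted p = 0.892, limma), with a 95% interval of 0.755-fold to 1.22-fold on 1143 to 1705 reads per library. A change of SOCS3 transcript beyond these bounds lay outside the interval, which is far narrower than that of CISH. Without UE7T-9 Cont replicate 1 the log2 fold change was 0.060, and it stayed between -0.17 and 0.060 whichever library was left out.

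SOCS4 and SOCS5 are close relatives with long N-terminal regions, known for promoting degradation of the EGF receptor. SOCS5 (chromosome 2, 46698952 to 46780245, plus strand) had 2275, 2114 and 1479 normalized counts in UE7T-9 Cont, against 2199, 2750.2 and 3192 in UE7T-9 SHC4. The means were 1956 ± 421 and 2714 ± 497 (SD, n = 3 each), and the groups overlapped because UE7T-9 Cont replicate 1 exceeded replicate 1 of UE7T-9 SHC4. The log2 fold change was 0.48 (SE 0.20) with a 95% interval of 1.03-fold to 1.89-fold and a limma p of 0.0355 that did not pass adjustment (adjusted p = 0.308). SOCS5 was the member with the smallest p, and the same gene had the smallest adjusted p in DESeq2 (0.247) and in edgeR's quasi-likelihood test (0.272) on the recovered reads. Of its 25-base words, 13.8% occurred in other annotated genes, mostly the pseudogenes SOCS5P3 and SOCS5P5, against at most 4.50% for any other member. LINC01118, a low noncoding gene that overlaps SOCS5 on the same strand by 160 exonic bases, had 3.90, 3.53 and 5.90 normalized counts in UE7T-9 Cont, against 22.0, 21.6 and 17.5 in UE7T-9 SHC4, without overlap of the groups (log2 fold change 1.99, SE 0.44, adjusted p = 0.145, limma).

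SOCS4 (chromosome 14, 55027230 to 55049488, plus strand) differed in the other direction. It had 1132, 1565 and 1539.5 normalized counts in UE7T-9 Cont, against 990.5, 1152 and 1205 in UE7T-9 SHC4. UE7T-9 Cont replicate 1 lay within the UE7T-9 SHC4 range and the other controls lay above it. The log2 fold change of -0.33 (SE 0.16) was the lowest of the family and did not pass the test (adjusted p = 0.38, limma), with a 95% interval of 0.623-fold to 1.02-fold.

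SOCS6 (chromosome 18, 70288901 to 70330200, plus strand) binds KIT and insulin receptor pathway proteins. It had 715, 529.8 and 486 normalized counts in UE7T-9 Cont, against 707, 687 and 760.4 in UE7T-9 SHC4, and UE7T-9 Cont replicate 1 was again the control inside the UE7T-9 SHC4 range. The log2 fold change was 0.33 (SE 0.16, adjusted p = 0.387, limma).

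SOCS7 (chromosome 17, 38352228 to 38405593, plus strand), which binds adaptors and insulin receptor substrates, was the steadiest member. It had 478, 487 and 467.3 normalized counts in UE7T-9 Cont, against 467.6, 466 and 408 in UE7T-9 SHC4. The overlap was narrow, since only UE7T-9 Cont replicate 3 fell below the highest UE7T-9 SHC4 library. The log2 fold change was -0.10 (SE 0.13, adjusted p = 0.774, limma), with a 95% interval of 0.766-fold to 1.14-fold. Its SD within groups was 0.083 on the log2 scale, and 4.37% of tested genes had a smaller one, whereas 75.5% of tested genes had a smaller SD than CISH (0.784).

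Across the family, 5 of 8 genes had a positive log2 fold change, beside 49.7% of all genes tested, and 3 a negative one, with a median of 0.28 beside -0.004 over all genes tested. None of the 8 passed an adjusted p of 0.05 in limma, where 0.0651% of all genes tested did, in DESeq2 (4.14%) or in edgeR (0.0694%). At an unadjusted p below 0.05, 1 of 8 passed in each tool, SOCS5, beside 14.4% of all genes in limma, 16.7% in DESeq2 and 17.6% in edgeR. The groups overlapped for all 8 members, whereas 19.3% of all genes tested had non-overlapping groups, and no member exceeded 1.5-fold, which 26.8% of all genes did. An exact permutation test of 3 against 3 libraries cannot give a two-sided p below 0.1, and the members' exact p ran from 0.2 for SOCS5 and SOCS7 to 0.9 for CISH. These counts describe 8 genes, and nothing particular to the family is read from them. As these are bulk samples, a changed level per cell cannot be told apart from a changed share of cells.

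**Figure D2:**
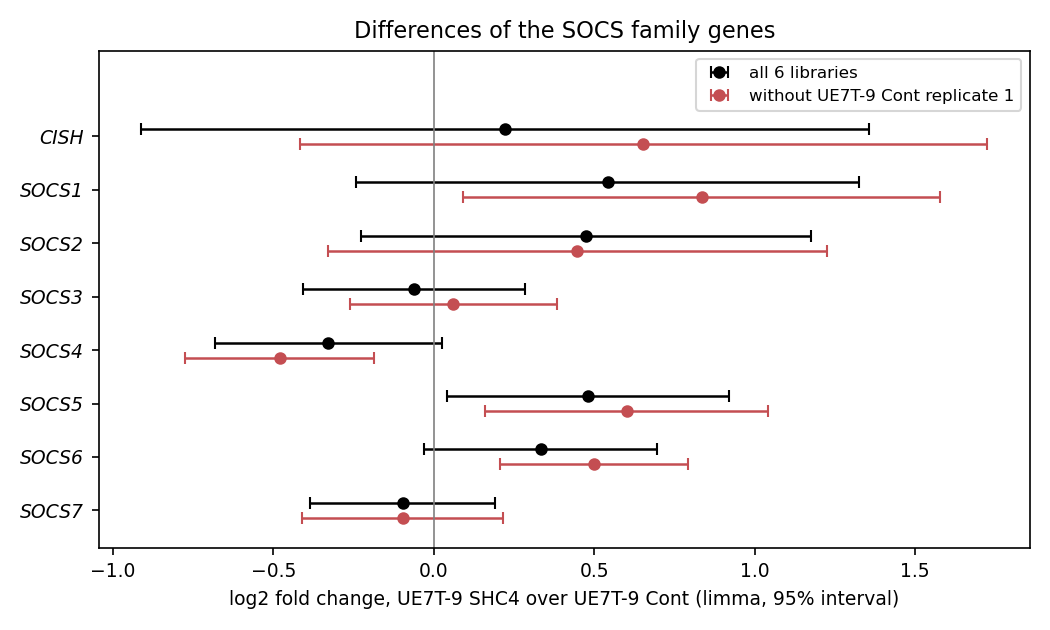
Log2 fold change of each SOCS family gene with its 95% interval from limma, for all 6 libraries (black) and without UE7T-9 Cont replicate 1 (red). With all libraries only the SOCS5 interval (0.04 to 0.92) lies above 0, and the intervals of SOCS3 and SOCS7 are narrow while that of CISH (-0.91 to 1.36) is wide.

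Among the controls, the overlap of the groups rested on UE7T-9 Cont replicate 1 for SOCS1, SOCS4, SOCS5 and SOCS6. It rested on UE7T-9 Cont replicate 2 for SOCS2 and on UE7T-9 Cont replicate 3 for SOCS7. Leaving out UE7T-9 SHC4 replicate 1 instead also removed the overlap for SOCS5 and SOCS7. For CISH and SOCS3 the controls lay on both sides of the UE7T-9 SHC4 range, and the groups overlapped whichever library was left out. Without UE7T-9 Cont replicate 1 the groups did not overlap for SOCS1, SOCS4, SOCS5 and SOCS6, that is 4 of 8 (50%) beside 40.0% of all genes tested. The log2 fold changes were then 0.84 for SOCS1 (adjusted p = 0.174), -0.48 for SOCS4 (adjusted p = 0.0659), 0.60 for SOCS5 (adjusted p = 0.107) and 0.50 for SOCS6 (adjusted p = 0.0575), by limma. None of the 8 passed at this setting either, beside 5.68% of all genes, although 4 of 8 had an unadjusted p below 0.05 beside 22.3% of all genes. Leaving out any other library gave 0 to 2 members with non-overlapping groups, beside 24.6% to 33.6% of all genes. COL1A1 was also far higher in UE7T-9 Cont replicate 1 than in the other controls. It was likewise higher in UE7T-9 SHC4 replicate 1 (276719) than in the other UE7T-9 SHC4 libraries (130035 and 122241). The part of COL1A1 in these values was not tested.

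**Figure D3:**
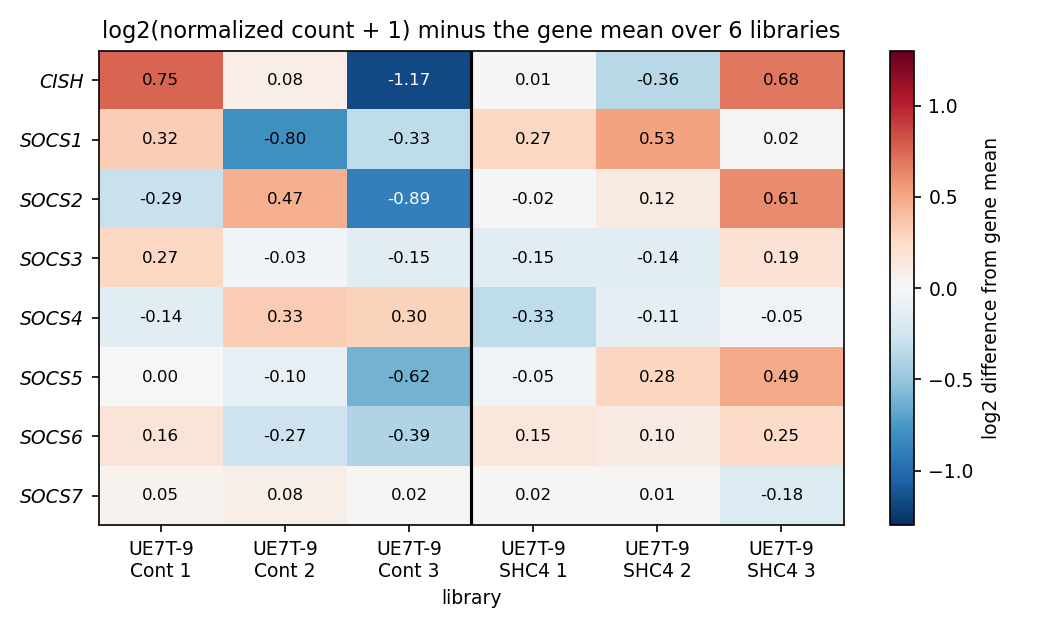
Log2(normalized count + 1) of each SOCS family gene in each library minus the mean of that gene over the 6 libraries, with a black line between the groups. SOCS7 stays near 0 throughout, CISH varies most, and UE7T-9 Cont replicate 3 holds the lowest value for CISH, SOCS2, SOCS3, SOCS5 and SOCS6.

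The genes whose pattern over the 6 libraries was most like each STAT-induced member were found by the mean absolute difference of centred log2 values among 15856 genes with a mean of at least 10. For SOCS3 they were ZNF786 (0.0288), VWA8 (0.0411) and KLF10 (0.0496), and for SOCS2 they were SEMA3F (0.0753), STKLD1 (0.0996) and DSG3 (0.103). For SOCS1 they were PAGR1 (0.0899), PHLDB1 (0.0913) and ANO7 (0.101). For CISH the nearest with a symbol were TAF4B (0.169) and ERICH6-AS1 (0.179). None of these is another SOCS gene, and with 6 libraries and many candidate genes a close match is a description only.

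STATs that induce family members were described next. STAT5A, which activates CISH and SOCS2, had 374, 231 and 221 normalized counts in UE7T-9 Cont, against 438, 559 and 497 in UE7T-9 SHC4. Its groups did not overlap, and its log2 fold change was 0.89 (SE 0.21), with an adjusted p of 0.162 in limma, 0.164 in edgeR and 0.0257 in DESeq2. Without UE7T-9 Cont replicate 1 it was 1.13 (adjusted p = 0.00571, limma). With all libraries the value for CISH was 0.22 and that for SOCS2 was 0.47, neither past any of the 3 tests. STAT5B was at a log2 fold change of 0.13 (adjusted p = 0.731, limma). STAT3, the activator of SOCS3, had 4761 to 4946 normalized counts in UE7T-9 Cont and 4586 to 5408 in UE7T-9 SHC4, with a log2 fold change of 0.07 (SE 0.13, adjusted p = 0.847, limma). Of 10 JAK and STAT genes, 8 had a positive and 2 a negative log2 fold change, 0 passed in limma or edgeR and 2 had an unadjusted limma p below 0.05 (20% beside 14.4% of all genes), while DESeq2 called STAT5A alone, 1 of 10 beside 4.14% of all genes.

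Among 41 cytokine ligands that act through JAKs, 21 were expressed highly enough to test, 6 with a positive and 15 with a negative log2 fold change and a median of -0.57. In limma and in edgeR 0 were called, and 3 had an unadjusted limma p below 0.05 (14.3% beside 14.4% of all genes). CLCF1, a ligand of the ciliary neurotrophic factor receptor, was at -0.06. LIF had 1155, 3844 and 2477 normalized counts in UE7T-9 Cont, against 1112, 1187 and 1979.6 in UE7T-9 SHC4 (log2 fold change -0.69, SE 0.39, adjusted p = 0.455, limma). IL6 had 228, 457 and 168 against 149, 90.7 and 271 normalized counts (log2 fold change -0.75, SE 0.44, adjusted p = 0.466, limma). In both genes the groups overlapped. For LIF the overlap rested on UE7T-9 Cont replicate 1, without which its log2 fold change was -1.16 (adjusted p = 0.0351, limma). DESeq2 called EBI3 alone, 1 of 27 ligands with values, beside 4.14% of all genes. EBI3, a subunit of interleukin-27, had 100.4, 112 and 280.4 normalized counts in UE7T-9 Cont, against 51.0, 30.8 and 36.1 in UE7T-9 SHC4. Its adjusted p in limma was 0.123 with all libraries and 0.0163 without UE7T-9 Cont replicate 1. At that setting limma called 3 of 22 ligands, EBI3, IL12A and LIF, all lower, beside 5.68% of all genes. IL12A had 51.7, 140 and 196 normalized counts in UE7T-9 Cont, against 58.0, 64.1 and 50.1 in UE7T-9 SHC4. Its overlap rested on UE7T-9 Cont replicate 1, and with all libraries its log2 fold change was -0.97 (SE 0.43, adjusted p = 0.352, limma).

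Of 43 receptor genes, 35 were tested, 14 with a positive and 21 with a negative log2 fold change. In limma 0 were called and 7 had an unadjusted p below 0.05 (20% beside 14.4% of all genes), and in edgeR 0 were called. DESeq2 called IL20RA, IL7R, LEPR and LIFR, 4 of the 38 with values. Over all genes it called 4.14% of the 16153 with an adjusted p. LIFR, the LIF receptor chain that pairs with gp130, had 1367, 1363 and 1316 normalized counts in UE7T-9 Cont, against 896, 858 and 836 in UE7T-9 SHC4. Its log2 fold change was -0.64 (SE 0.11) without overlap of the groups, and its adjusted p was 0.0887 in limma, 0.0871 in edgeR and 0.000245 in DESeq2. LEPR, the leptin receptor and a target of SOCS3, had 862, 658 and 398 against 1493, 1132 and 1699 normalized counts (log2 fold change 1.22, SE 0.27, adjusted p = 0.137 in limma and 0.00344 in DESeq2). Without UE7T-9 Cont replicate 1 limma called both, LIFR at -0.63 (adjusted p = 0.0175) and LEPR at 1.47 (adjusted p = 0.00934). They were among 6 of 33 receptors called at that setting, beside 5.68% of all genes. LEPR was called higher, while LIFR, CNTFR, CRLF2, IL13RA2 and IL7R were called lower. IL7R had 597, 819 and 1659 normalized counts in UE7T-9 Cont, against 605, 219 and 235 in UE7T-9 SHC4. Its overlap rested on UE7T-9 Cont replicate 1, and with all libraries its log2 fold change was -1.56 (SE 0.44, adjusted p = 0.192, limma). IL6ST, which encodes gp130, was at 0.29 (adjusted p = 0.436, limma), OSMR, the oncostatin M receptor, at 0.00 (adjusted p = 0.996) and GHR, the growth hormone receptor held in check by SOCS2, at -0.25 (adjusted p = 0.536).

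Other genes that STATs induce gave 9 positive and 4 negative log2 fold changes among 13 tested, and limma, edgeR and DESeq2 called 0, with 1 at an unadjusted limma p below 0.05 (7.69% beside 14.4% of all genes). The most abundant of them, CCND1 (0.18) and MCL1 (-0.24), had overlapping groups. CEBPD, the transcription factor induced by STAT3, had 1513, 992 and 403 normalized counts in UE7T-9 Cont, against 1552, 1750 and 2002 in UE7T-9 SHC4. Those groups did not overlap, with a log2 fold change of 1.05 (SE 0.39, adjusted p = 0.278, limma), whereas the values of SOCS3 overlapped and differed by -0.06. Without UE7T-9 Cont replicate 1 limma called CEBPD (1.47, adjusted p = 0.0264) and BCL3, a partner of NF-kappaB (0.79, adjusted p = 0.0166, against 0.49 and 0.386 with all libraries). These were 2 of 13 tested, beside 5.68% of all genes.

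Of 12 inhibitors of the pathway outside the family, 3 had a positive and 9 a negative log2 fold change. 0 were called by limma or edgeR, and 1 had an unadjusted limma p below 0.05 (8.33% beside 14.4% of all genes). That gene was SH2B3, the adaptor also called LNK that restrains JAK2, with 3053, 3800.2 and 5039 normalized counts in UE7T-9 Cont against 2873, 2114 and 2282 in UE7T-9 SHC4. Its log2 fold change was -0.69 (SE 0.20, adjusted p = 0.195 in limma and 0.0430 in DESeq2), and -0.86 without UE7T-9 Cont replicate 1 (adjusted p = 0.0236, limma). At that setting limma called 2 of 12 inhibitors, SH2B3 and USP18, both lower, beside 5.68% of all genes. USP18 had the smaller adjusted p of these (0.000639, limma). PTPN11, the SHP2 phosphatase, was at -0.14 with all libraries.

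The ligase partners through which the SOCS box works had log2 fold changes between -0.30 and 0.28. Of 9 tested genes, 0 were called by limma, edgeR or DESeq2 and 0 had an unadjusted limma p below 0.05 (beside 14.4% of all genes), and the values were 0.03 for ELOB, -0.30 for ELOC and -0.11 for CUL5. Among 22 tested genes of other SOCS box families, 0 were called by the same 3 tools and 2 had an unadjusted limma p below 0.05 (9.09% beside 14.4% of all genes), and WSB1, the most abundant, was at 0.13.

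The receptors and adaptors that SOCS proteins bind outside the cytokine receptors had a median log2 fold change of 0.40, with 7 of 9 positive. In limma 0 were called and 3 had an unadjusted p below 0.05 (33.3% beside 14.4% of all genes), in edgeR 0 were called, and DESeq2 called IGF1R, 1 of 9 beside 4.14% of all genes. IGF1R, the insulin-like growth factor receptor, had 1577, 1476 and 1214 normalized counts in UE7T-9 Cont, against 1876, 2181 and 2075 in UE7T-9 SHC4 without overlap (log2 fold change 0.53, SE 0.14, adjusted p = 0.18 in limma and 0.0426 in DESeq2). Without UE7T-9 Cont replicate 1 limma called IGF1R (0.61, adjusted p = 0.0356) and IRS1, an insulin receptor substrate (0.67, adjusted p = 0.0285, against 0.48 and 0.281 with all libraries). These were 2 of 9 tested, beside 5.68% of all genes. EGFR, on which SOCS4 and SOCS5 act, was at 0.03 (adjusted p = 0.959, limma). KIT, the partner of SOCS6, had 138, 155 and 69.8 against 306, 201 and 205 normalized counts, also without overlap (log2 fold change 1.02, SE 0.31, adjusted p = 0.208 in limma and 0.0682 in DESeq2).

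**Figure D4:**
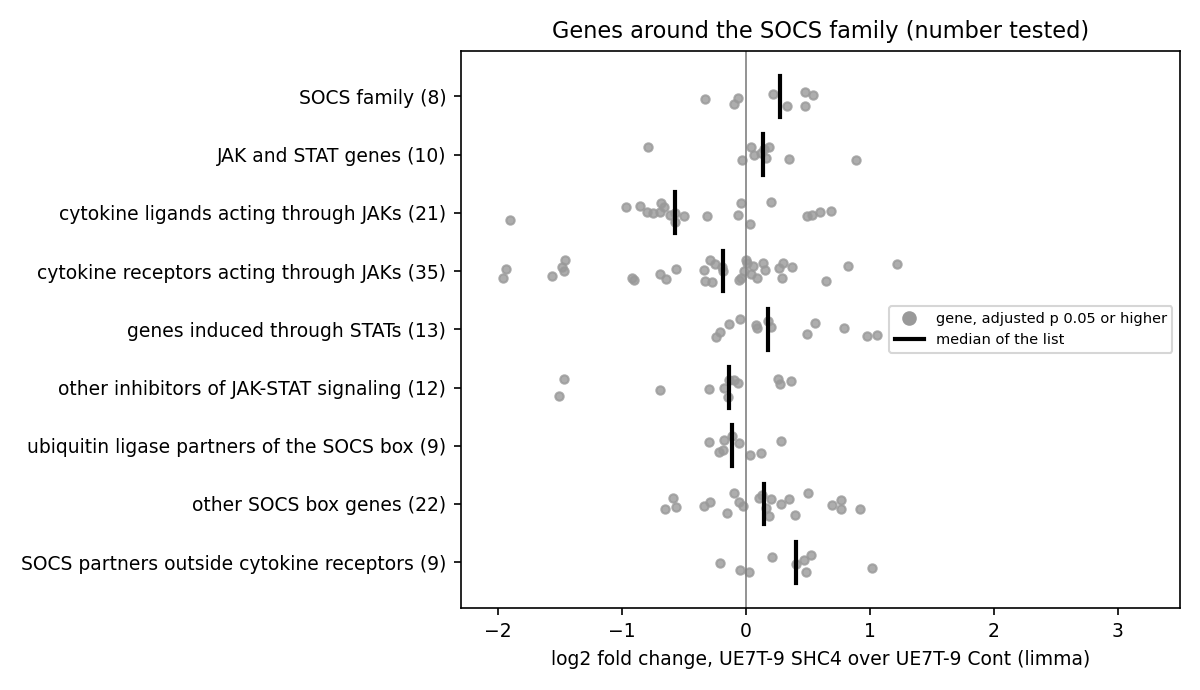
Log2 fold change (limma) of every tested gene of the SOCS family and of the lists around it, 1 point per gene, with a black line at the median of each list. No gene plotted has an adjusted p below 0.05, the SOCS family lies between -0.33 and 0.54, and the ligand list has the lowest median (-0.57).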

How the data were processed

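RNA sequencing covered 6 samples, 3 per group. The submitters' processing notes name HISAT2 2.0.5, featureCounts 1.5.0-p3 and DESeq2. The genome build, annotation and strand setting are not given in the sources used here. The deposited signal is a normalized count per gene and library. All values (100%, tolerance 0.01 reads) were whole multiples of 1 read, so reads were recovered by division.

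Genes with a mean of at least 1 (23040 of 28181) were tested on log2(value + 1) with limma 3.58.1 (trend) in R 4.3.3, as UE7T-9 SHC4 against UE7T-9 Cont, with a call at an adjusted p (Benjamini-Hochberg) below 0.05. Adding 1 shrinks the fold change of low genes, and for CISH a pseudocount of 0.1 gave 0.233 in place of 0.222. The values of DESeq2 and edgeR on reads were nevertheless smaller for the 2 lowest members. They were 0.083 and 0.081 for CISH, and 0.492 and 0.495 for SOCS1 against 0.542 in limma. Alternatives were DESeq2 1.42.0 and edgeR 4.0.16 (quasi-likelihood) on recovered reads, library size and TMM scaling, other filters and pseudocount, a fold threshold, a replicate block and leaving out each library. The code was tested on simulated data. Symbols matched 27968 identifiers. Positions and exon lengths are from GENCODE 29 (GRCh38) and promoter windows from RefSeq (GRCh38.p14), neither of which need be the authors' annotation.

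Family members and lists were chosen with earlier results of these data known. Of the listed genes, 2 are not reported here and enter no list count or list plot. Named genes were the 8 members, SHC4, called list genes, up to 4 further genes per list by highest mean, STAT5A, STAT5B, STAT3, IL6, LIF, IL6ST, LIFR and GHR, and the 3 genes most like each STAT-induced member. LINC01118, SOCS2-AS1, MAPKAPK3, the marker genes, and the list genes called by an alternative or singled out for non-overlapping groups (CEBPD and KIT among them) were named after their values were seen. No batch is given in the labels.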

Additional observations from a re-analysis of the deposited data

How the results depend on the processing

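Over 14 other settings, 8 of them with all 6 libraries, 109 of 112 member log2 fold changes kept their direction, and none passed an adjusted p of 0.05 (smallest 0.0575). The exceptions were CISH without UE7T-9 Cont replicate 3 (-0.31) and without UE7T-9 SHC4 replicate 3 (-0.06), and SOCS3 without UE7T-9 Cont replicate 1 (0.060). The cause was not tested. With 1 library left out, log2 fold changes ran from -0.31 to 0.65 for CISH, 0.28 to 0.84 for SOCS1, 0.15 to 0.83 for SOCS2, -0.17 to 0.060 for SOCS3, -0.48 to -0.25 for SOCS4, 0.29 to 0.62 for SOCS5, 0.22 to 0.50 for SOCS6 and -0.13 to -0.03 for SOCS7.

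Over all genes limma called 15. DESeq2 called 669, library size scaling 28 (which moved the median of all genes to -0.10), TMM scaling 25 and no filter 43. Leaving out 1 library gave 2 to 1311 calls: 1311 without UE7T-9 Cont replicate 1, 6 without UE7T-9 Cont replicate 2, 10 without UE7T-9 Cont replicate 3, 67 without UE7T-9 SHC4 replicate 1 and 2 without either of the other UE7T-9 SHC4 libraries. A fit with replicate number as a block called 47 genes. The deviations of same-numbered libraries correlated at 0.148, 0.013 and -0.00696 across genes. The value for replicate 1 was the highest of any control paired with an UE7T-9 SHC4 library. UE7T-9 Cont replicate 2 went best with UE7T-9 SHC4 replicate 3 (0.0992), and UE7T-9 Cont replicate 3 with UE7T-9 SHC4 replicate 2 (0.0818). Whether same-numbered libraries share more than a number is not stated in the labels and was not tested. The block gave SOCS4 an adjusted p of 0.191 and SOCS5 one of 0.27 and changed no call of a member.

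DESeq2 called 1 JAK or STAT gene, 1 ligand, 4 receptors, 1 other inhibitor and 1 SOCS partner, beside 4.14% of all genes. The block called 1 of 35 receptors, IL13RA2, beside 47 of 23040 genes. Leaving out 1 library gave 0 to 1 JAK or STAT genes, 0 to 3 ligands, 0 to 6 receptors and 0 to 2 STAT-induced genes. It also gave 0 to 2 other inhibitors, 0 to 1 ligase partners and 0 to 2 SOCS partners. Each highest value came without UE7T-9 Cont replicate 1. In the same order, limma then called 1 of 10, 3 of 22, 6 of 33, 2 of 13, 2 of 12, 1 of 9 and 2 of 9. Over all genes 5.68% were called at that setting. CISH and SOCS1 rest on 16 to 64 and 21 to 76 reads per library, and how far counting error limits their tests was not tested.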

Other observations

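Ratios of 2 family members within a library do not depend on the scaling of that library. They were computed after the values had been seen and are given as a description, with no test. Of the 28 ratios, 4 had groups that did not overlap (14.3%, beside 19.3% of single genes), and these 4 share members. SOCS4 over SOCS5 was 0.497, 0.740 and 1.04 in UE7T-9 Cont, against 0.450, 0.419 and 0.378 in UE7T-9 SHC4. SOCS3 over SOCS5 was 0.731, 0.636 and 0.839 against 0.565, 0.456 and 0.493. SOCS3 over SOCS6 was 2.32, 2.54 and 2.55 against 1.76, 1.82 and 2.07. SOCS2 over SOCS4 was 0.327, 0.401 and 0.159 against 0.452, 0.428 and 0.576. These ratios were picked because their groups did not overlap. By that choice UE7T-9 Cont replicate 1 lies on the side of the other controls in each, and nothing is read from that.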
